A study of Homo sapiens with 16 samples.

Results

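The step from transformed to metastasizing BJ fibroblasts was followed at 3% oxygen, in 4 of the 16 libraries of the series. BJ is a human fibroblast line, and each stage of the model is 1 cell line derived from it. The transformed stage (libraries sv_3_a and sv_3_b) carries hTERT, the catalytic subunit of telomerase, and SV40 Large-T, a viral protein that inactivates p53 and the retinoblastoma proteins. The metastasizing stage (libraries ras_3_a and ras_3_b) carries the same hTERT and SV40 and, in addition, H-Ras with the G12V change. Both stages had grown at 3% oxygen for 6 passages in the same serum-containing medium, on duplicate plates in parallel. A group is therefore 2 plates of 1 line, and p-values measure only the spread between such plates. The same stages grown at atmospheric oxygen (sv_atm and ras_atm, 2 libraries each) were used to ask whether the step differed with oxygen. Expression is given in TPM, the share of a gene's transcripts among all transcripts of a library, which holds no read counts, so the depth behind each value is unknown. Of 19356 protein-coding genes, 12288 averaged 1 TPM or more in at least 1 of the groups at 3% oxygen and were tested.

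RAS proteins are small GTPases at the inner face of the plasma membrane that switch between a GDP-bound and an active GTP-bound form. A change at codon 12 slows the return to the inactive form, so that the RAF, MEK and ERK kinases and the PI3K pathway receive a lasting signal. In fibroblasts, lasting RAS activity is known for raising proteases and secreted growth factors, for lowering the synthesis of fibrillar matrix, and for altering the actin cytoskeleton. Low oxygen acts through the HIF transcription factors, which raise genes of glycolysis, angiogenesis and matrix modification. The comparison at 3% oxygen asks what the last step of the model changes in cells that already live under moderate hypoxia.

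HRAS was examined before all other genes, since it marks the step. The gene lies on chromosome 11, 532242 to 537321 (GRCh37, minus strand). TPM cannot separate the introduced allele from the cell's own. The authors called variants in the RNA-seq reads and report that these bore out the mutations of each stage, a check that was not repeated here. Transcript HRAS-201 measured 26.2 and 24.5 TPM in sv_3_a and sv_3_b, and 119.9 and 740.3 TPM in ras_3_a and ras_3_b. Both metastasizing libraries lay above both transformed ones, and ras_3_b lay far above ras_3_a. The other 9 HRAS transcripts summed to 23.3 and 37.3 TPM in the transformed and to 23.6 and 31.8 TPM in the metastasizing libraries, so these ranges overlapped. Over the whole gene the values were 49.4 and 61.8 TPM against 143 and 772 TPM, a log2 fold change of 2.58 (SE 0.55, adjusted p = 0.0209), which missed the threshold of 0.01. With every group given the same spread the adjusted p was 0.00627. At atmospheric oxygen the libraries labelled metastasizing did not differ from the transformed ones in this way: HRAS-201 measured 57.3 and 54.3 TPM in sv_atm and 55.5 and 49.6 TPM in ras_atm. NRAS, a related RAS gene that did not pass the test, measured 64.9 and 54.2 TPM in the transformed and 87.3 and 85.6 TPM in the metastasizing libraries (log2 fold change 0.54, SE 0.16, adjusted p = 0.0739). TERT, the introduced telomerase subunit carried by all 4 libraries, measured 75.1 and 78 TPM in the transformed and 31.7 and 68.1 TPM in the metastasizing libraries.

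**Figure D1:**
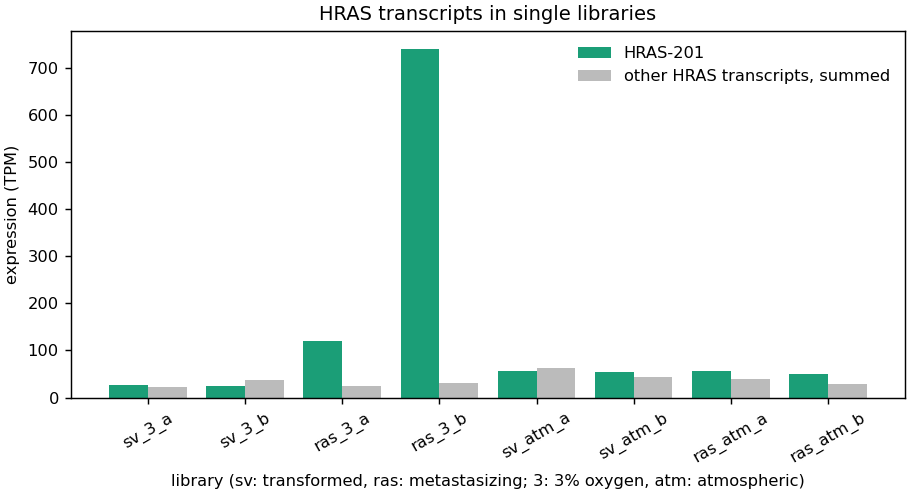
Expression in TPM (vertical axis, from 0) of transcript HRAS-201 (green) and of the other 9 HRAS transcripts summed (grey) in each transformed (sv) and metastasizing (ras) library at 3% and atmospheric oxygen. HRAS-201 reached 119.9 TPM in ras_3_a and 740.3 TPM in ras_3_b and stayed between 24.5 and 57.3 TPM in the other 6 libraries.

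All 4 libraries held fibroblast transcripts at a high level. The 11 fibroblast markers were all tested and summed to 4694 and 3953 TPM in the transformed and to 4180 and 5648 TPM in the metastasizing libraries. VIM held most of these sums, and the other 10 markers summed to 1327 and 1223 TPM against 551.7 and 1340 TPM, so that ras_3_a was low in them. The 7 epithelial markers summed to between 5.17 and 9.14 TPM, with KRT5 and KRT14 listed at 0 in all 4. Of 6 endothelial markers 5 were found among the protein-coding genes (PECAM1 was not), and these summed to between 0.761 and 1.04 TPM. Of 7 blood cell markers only CD68, a lysosomal protein that fibroblasts also express, passed the filter, and CD3E and HBB were listed at 0 in all 4. The blood cell markers summed to 43.4 and 65.3 TPM in the transformed and to 45.5 and 84.99 TPM in the metastasizing libraries.

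The pair of metastasizing libraries differed from each other in more genes than the pair of any other group in the series. Of 11843 genes that averaged 1 TPM or more in that group, 1301 (11%) differed more than 2-fold between ras_3_a and ras_3_b. In transformed cells at 3% oxygen 489 of 11975 genes (4.08%) did so, and in the other 6 groups the share was 1.83% to 3.26%. Over the 12288 genes tested, Spearman's rho was 0.9568 between the metastasizing libraries and 0.9745 between the transformed ones, and from 0.9266 to 0.9489 across the stages. The labels give average insert sizes of 343 and 306 bp for ras_3_a and ras_3_b, and of 312 and 324.61 bp for sv_3_a and sv_3_b, and mitochondrially encoded transcripts held 1.16% to 1.77% of the TPM of these libraries.

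The genes that set the pair apart were of several kinds. ANKRD1, a stretch- and YAP-responsive repeat protein, measured 146 TPM in ras_3_a and 1.91 TPM in ras_3_b, against 8.7 and 10.9 TPM in the transformed libraries. DUSP2, a phosphatase of MAP kinases, measured 26.8 TPM in ras_3_a and 1.51 TPM in ras_3_b, against 3.01 and 1.73 TPM. NDUFA13, a subunit of respiratory complex I, measured 56.5 TPM in ras_3_a and 3.17 TPM in ras_3_b, against 4.15 and 7.06 TPM. In these 3 genes ras_3_a stood far above and ras_3_b lay below both transformed libraries. PCSK7, a proprotein convertase, measured 208 TPM in ras_3_a and 20.1 TPM in ras_3_b, while sv_3 gave 14.2 and 15.5 TPM. ANKMY1 gave 27.7 and 2.19 TPM in the same order against 3.07 and 1.79 TPM. Higher values in ras_3_b were seen in CSF3 and CXCL1, among others. CSF3, the granulocyte colony-stimulating factor, measured 26.5 and 458 TPM in ras_3_a and ras_3_b, and 2.13 and 43.1 TPM in sv_3_a and sv_3_b. CXCL1, a neutrophil-attracting chemokine, measured 30.6 and 294 TPM against 26.9 and 164 TPM. In both genes the b library of each stage was the higher one, so the groups overlapped. ACTB, the cytoplasmic beta-actin, measured 74.3 and 813 TPM in the metastasizing, 352 and 408 TPM in the transformed libraries and 1764 and 1421 TPM in sv_atm. DRC3, KCNC4, C6orf136, C1orf134, GTF2I, TEN1, ADGRV1 and PTPN23 also differed strongly between ras_3_a and ras_3_b. The transformed libraries also differed from each other more than 10-fold in TEN1, GTF2I, C6orf136 and C1orf134, with GTF2I at 147 and 12.4 TPM and TEN1 at 36.6 and 1.39 TPM. In TEN1 the a library was the high one in both stages, and in GTF2I it was high in the transformed and low in the metastasizing stage.

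The comparison gave each group its own variance factor, and the metastasizing group at 3% oxygen had the lowest weight of the 8 groups (0.227, against 0.659 for transformed cells at 3% oxygen and 1.08 to 2.11 for the others). A gene was called a differentially expressed gene (DEG) at a Benjamini-Hochberg adjusted p under 0.01 from limma together with a change of more than 1 on the log2 scale, up or down. On this basis 62 of 12288 genes rose (0.505%) and 104 fell (0.846%) from the transformed to the metastasizing stage. The log2 fold changes ran from 1.01 to 4.07 among the DEGs that rose (median 1.82) and from -4.93 to -1.05 among those that fell (median -2.03), and the median over all genes tested was -0.071. Read without a test, 153 genes (1.25%) were more than 2-fold higher in each metastasizing library than in either transformed library, and 290 (2.36%) more than 2-fold lower. This held for 49 of the 62 DEGs that rose and for 95 of the 104 that fell. By plain ranges, the groups did not overlap in 2800 genes that were higher (22.8%) and in 3877 that were lower (31.6%). Single libraries weighed on the counts: without ras_3_a 24 genes rose and 23 fell, without ras_3_b 45 and 66, and without sv_3_b 28 and 52. The spread was estimated over all 16 libraries. A fit to the 4 libraries alone called no gene by limma (898 higher and 1401 lower at an unadjusted p under 0.05). With 2 libraries against 2, an exact permutation test of a single gene cannot give a two-sided p under 0.333. In the sentences that follow, an adjusted p without a named library is added for each DEG that was no longer called when that library was left out.

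**Figure D2:**
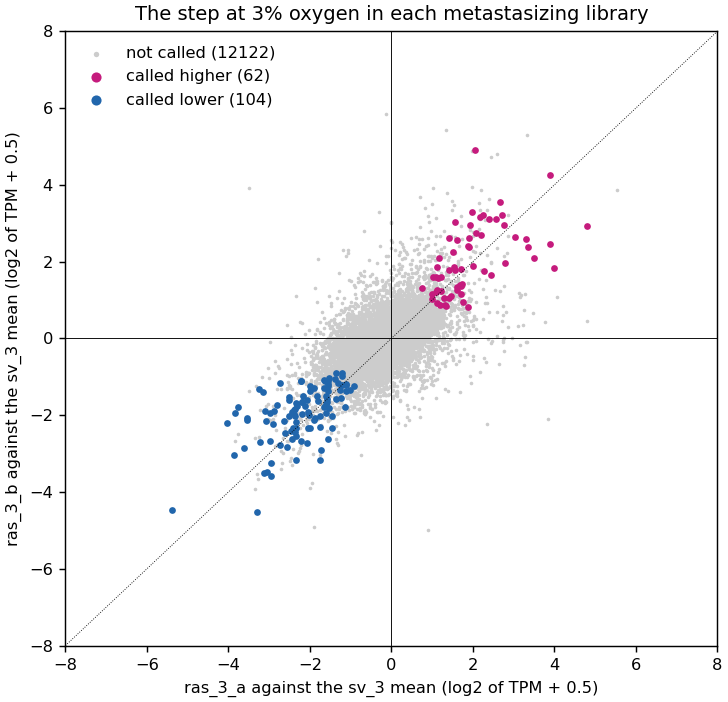
Log2 fold change of each of the 12288 genes in ras_3_a (horizontal axis) and in ras_3_b (vertical axis), each against the mean of the transformed libraries at 3% oxygen, on the log2(TPM + 0.5) scale. The 62 DEGs that rose (magenta) and the 104 that fell (blue) lie in the quadrants where both libraries moved the same way, and the dotted line marks equal change.

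TXNIP had the highest fold change among the DEGs that rose. This inhibitor of thioredoxin and of glucose uptake measured 1.78 and 1.35 TPM in the transformed and 29.9 and 38.8 TPM in the metastasizing libraries, a log2 fold change of 4.07 (SE 0.27, adjusted p = 4.70e-05). LCP1, an actin-bundling protein typical of leukocytes and of many carcinoma lines, measured 1.2 and 2.48 TPM against 62.4 and 16.7 TPM (log2 fold change 3.87, SE 0.59, adjusted p = 0.00479, 0.0138 without sv_3_a and 0.0682 without ras_3_a). Both genes lay apart between the stages, and LCP1 was higher in ras_3_a than in ras_3_b. HCLS1, another leukocyte-type actin regulator, went from 2.64 and 1.9 to 18.1 and 20.8 TPM (log2 fold change 2.86, SE 0.36, adjusted p = 0.00158, 0.02 without ras_3_a and 0.0183 without ras_3_b). AKAP12, a scaffold for protein kinases A and C, went from 12.5 and 10.8 to 179.5 and 66.7 TPM (log2 fold change 3.18, SE 0.3, adjusted p = 0.000293). TNFRSF6B, a decoy receptor for FAS ligand, was listed at 0 in both transformed libraries and at 1.56 and 14.6 TPM in the metastasizing ones (adjusted p = 0.00901, 0.023 without sv_3_a, 0.0302 without sv_3_b and 0.049 without ras_3_b), and no fold is given against 0. Its gene overlaps a read-through transcript with RTEL1, so its reads could be split between them. STK26, a kinase of the Golgi and of cell polarity, measured 0.527 and 0.843 TPM in the transformed and 7.27 and 10.4 TPM in the metastasizing libraries (log2 fold change 2.97, SE 0.37, adjusted p = 0.00151, 0.0144 without ras_3_a and 0.0191 without ras_3_b). INHBA, the subunit of activin A, measured 2.36 and 3.16 against 51.1 and 11 TPM (log2 fold change 2.91, SE 0.51, adjusted p = 0.00907, 0.0284 without sv_3_a, 0.0231 without sv_3_b and 0.106 without ras_3_a). The integrin co-activator FERMT1 measured 0.608 and 0.305 against 9.09 and 4.4 TPM (log2 fold change 2.86, SE 0.5, adjusted p = 0.00934, 0.0142 without sv_3_a, 0.0382 without sv_3_b, 0.122 without ras_3_a and 0.026 without ras_3_b). In INHBA and FERMT1 ras_3_a was the higher of the metastasizing libraries, and FERMT1 lay below 1 TPM in both transformed ones. MMP1 and ACTG2, the remaining genes among the 10 with the largest rises, are described with the proteases and the contractile proteins.

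The DEG that fell furthest was DPT, dermatopontin of the dermal matrix. It measured 34.2 and 69.7 TPM in sv_3_a and sv_3_b and 0.674 and 1.73 TPM in ras_3_a and ras_3_b, a log2 fold change of -4.93 (SE 0.64, adjusted p = 0.0019, 0.0346 without ras_3_a). IGFBP5, a binding protein of insulin-like growth factors, measured 90.8 and 95.2 TPM against 9.07 and 3.56 TPM (log2 fold change -3.91, SE 0.24, adjusted p = 4.70e-05). In neither gene did the groups come close to each other. ADAMTS5, a protease of aggrecan and versican, went from 7.53 and 7.12 to 0.399 and 0.19 TPM (log2 fold change -3.31, SE 0.35, adjusted p = 0.000586), below 1 TPM in both metastasizing libraries. CPA4 and CPZ are carboxypeptidases. CPA4 went from 14.1 and 14.5 to 1.42 and 0.74 TPM (log2 fold change -3.27, SE 0.28, adjusted p = 0.000163), and CPZ from 30.7 and 28.2 to 2.68 and 4.09 TPM (log2 fold change -2.97, SE 0.25, adjusted p = 0.000158). The unconventional myosin MYO7B went from 29.9 and 25.5 to 2.86 and 2.02 TPM (log2 fold change -3.27, SE 0.3, adjusted p = 0.000206). MEST, an imprinted gene of mesodermal tissue, measured 22.1 and 14.6 TPM in the transformed and 0.626 and 3.51 TPM in the metastasizing libraries (log2 fold change -3.12, SE 0.45, adjusted p = 0.0036, 0.0105 without sv_3_a and 0.0373 without ras_3_a). MGARP, a mitochondrial protein, measured 8.8 and 8.51 against 0.248 and 0.769 TPM (log2 fold change -3.23, SE 0.36, adjusted p = 0.000808, 0.0165 without ras_3_a), and TMTC1, an O-mannosyltransferase of the endoplasmic reticulum, 8.19 and 7.5 against 0.581 and 0.379 TPM (log2 fold change -3.1, SE 0.24, adjusted p = 8.81e-05). BMP4 is described with its pathway. In all 10 genes both metastasizing libraries lay more than 2-fold below both transformed ones, as the rule that named them asks.

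**Figure D3:**
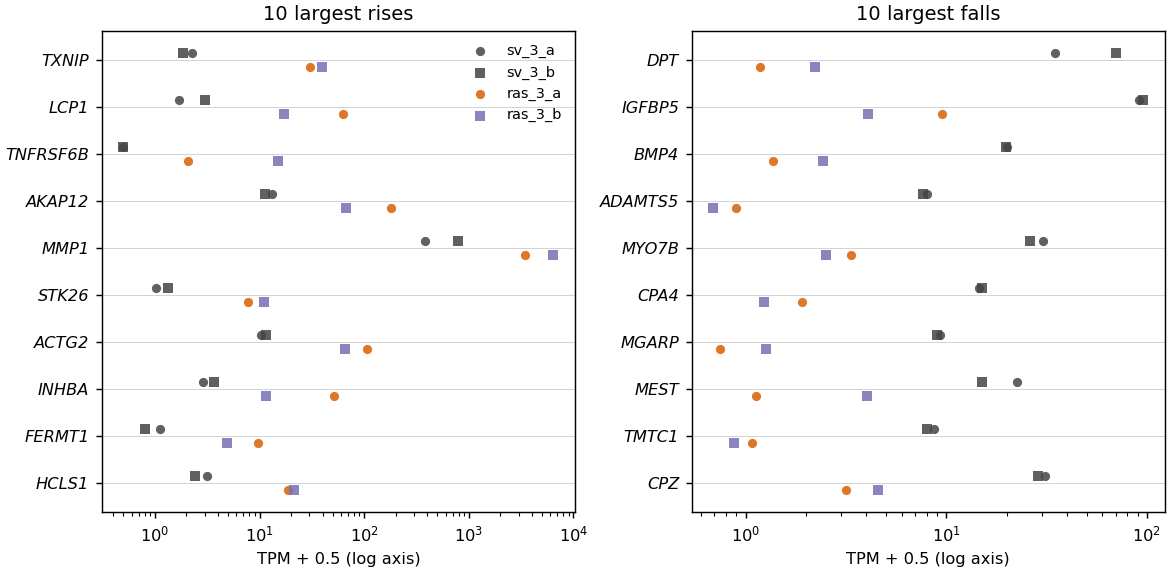
TPM + 0.5 on a log axis in each library at 3% oxygen for the 10 DEGs with the largest rises (left) and the 10 with the largest falls (right), with transformed libraries in grey, ras_3_a in orange and ras_3_b in violet. For every gene the metastasizing points lie to one side of both transformed points, and MMP1 reaches 6422 TPM in ras_3_b.

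Some further DEGs, chosen after their values were seen, have known roles in growth, signalling or stress. HMGA2, a chromatin protein of embryonic and tumor cells, rose from 17.3 and 16.3 to 45.4 and 106 TPM (adjusted p = 0.00274, 0.013 without sv_3_b and 0.0144 without ras_3_b). GDNF, a ligand of the RET receptor, rose from 1.3 and 0.968 to 7.2 and 14.7 TPM (adjusted p = 0.00372, 0.0177 without sv_3_b, 0.0144 without ras_3_a and 0.0414 without ras_3_b), and the transferrin receptor TFRC from 69.8 and 59.9 to 197 and 155 TPM (adjusted p = 0.002, 0.0346 without ras_3_a). NQO1, a target of the NRF2 factor, rose from 139 and 106 to 260.2 and 366 TPM (adjusted p = 0.00848, 0.0307 without sv_3_b, 0.0312 without ras_3_a and 0.0781 without ras_3_b). Among those that fell was KIT, the receptor of stem cell factor, from 24.5 and 16.1 to 1.25 and 4.15 TPM (adjusted p = 0.00325, 0.041 without ras_3_a). TLR4, the receptor of bacterial lipopolysaccharide, fell from 13.4 and 14.5 to 1.68 and 1.6 TPM (adjusted p = 0.000293), and the WNT antagonist DKK1 from 518 and 506 to 185 and 125 TPM (adjusted p = 0.000293). ZEB2, a repressor of epithelial genes, fell from 73.8 and 68.2 to 30.1 and 30.3 TPM (adjusted p = 0.00906, 0.0276 without sv_3_a, 0.025 without sv_3_b, 0.0739 without ras_3_a and 0.0536 without ras_3_b), and CCNG2, a cyclin of resting cells, from 67 and 58.3 to 6.58 and 23.3 TPM (adjusted p = 0.00479, 0.0148 without sv_3_a, 0.0153 without sv_3_b and 0.0175 without ras_3_a).

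Genes that ERK signalling is known to induce, among them its feedback inhibitors, gave no DEG. Of the 18 tested, 4 lay above both transformed libraries without overlap and 6 below (22.2% and 33.3%, close to the 22.8% and 31.6% of all genes), and their median log2 fold change was -0.17 (-0.39 in ras_3_a and 0.018 in ras_3_b), beside -0.071 over all genes. The phosphatases of ERK measured 22.3 and 26.5 TPM in the transformed and 12.5 and 43.7 TPM in the metastasizing libraries for DUSP6, and 25 and 27.2 against 12 and 36.5 TPM for DUSP4. In both genes the transformed values lay between ras_3_a and ras_3_b. SPRY1, an inhibitor of receptor tyrosine kinase signalling, had the largest change of the list, from 2.18 and 2.72 to 0.301 and 0.367 TPM (log2 fold change -1.82, SE 0.38, adjusted p = 0.0199). FOSL1, the AP-1 subunit FRA1, measured 204 and 215 against 377 and 225 TPM (log2 fold change 0.47, SE 0.19, adjusted p = 0.174), and CCND1, cyclin D1, 66.5 and 63.1 against 147 and 107 TPM (log2 fold change 0.95, SE 0.21, adjusted p = 0.0264). Groups did not overlap in these 3 genes, but none passed the threshold. Among 8 tested EGF family ligands and receptors none was a DEG. HBEGF, a heparin-binding ligand of EGFR, measured 27.6 and 30.9 against 62.5 and 39 TPM (log2 fold change 0.75, SE 0.2, adjusted p = 0.0485), and EGFR itself 50.03 and 49.3 against 31.8 and 34.7 TPM (log2 fold change -0.57, SE 0.24, adjusted p = 0.199). The receptor ERBB3 measured 8.68 and 26.1 TPM in the transformed and 2.94 and 2.26 TPM in the metastasizing libraries (log2 fold change -2.34, SE 1.05, adjusted p = 0.228).

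Several secreted cytokines and chemokines differed strongly between plates of one stage. Of 12 cytokines tested none was a DEG, with a median log2 fold change of 0.88, or 0.54 without sv_3_a and 1.47 without sv_3_b. IL1B, the pyrogenic interleukin 1 beta, measured 28.1 and 155 TPM in sv_3_a and sv_3_b and 186 and 677 TPM in ras_3_a and ras_3_b (log2 fold change 2.41, SE 1.04, adjusted p = 0.211). LIF, a cytokine of the interleukin 6 family, measured 3.6 and 4.6 against 75.5 and 9.19 TPM (log2 fold change 2.57, SE 0.67, adjusted p = 0.0481). Metastasizing values lay above the transformed ones in IL1B and LIF without overlap, and neither passed the threshold. IL6 measured 58 and 536 TPM in the transformed and 148 and 180.4 TPM in the metastasizing libraries, so that sv_3_b held the highest value. CSF3 had the largest change of the list (log2 fold change 3.38, SE 1.47, adjusted p = 0.213), and its groups overlapped. Among 9 chemokines CXCL12, the ligand of CXCR4, was the only DEG and fell from 117 and 75.6 to 20.5 and 33.1 TPM (log2 fold change -1.83, SE 0.3, adjusted p = 0.00722, 0.0153 without sv_3_a, 0.101 without ras_3_a and 0.0177 without ras_3_b). CCL2, which attracts monocytes, measured 392 and 812 TPM against 83.4 and 331 TPM (log2 fold change -1.76, SE 0.52, adjusted p = 0.0759). For the neutrophil-attracting CXCL8 the values were 191 and 1385 against 292 and 699.6 TPM. Chemokines were lower than the transformed mean in ras_3_a (median -1.11) and higher in ras_3_b (median 1.5). The b library was the higher one in both stages, with a median log2 ratio of b to a of 1.58 in ras_3 and 1.81 in sv_3. The median log2 fold change of the chemokines over both metastasizing libraries was 0.21, but -0.78 without sv_3_a and 1.24 without sv_3_b. None of 15 NF-kB subunits, inhibitors and targets was a DEG, and their median was -0.27, or -0.57 without sv_3_a and 0.24 without sv_3_b. NFKBIA, the inhibitor that NF-kB induces, measured 69.7 and 157 against 91.4 and 117 TPM, and BIRC3, an inhibitor of apoptosis and the largest change of the list, 4.49 and 9.45 against 3.97 and 2.07 TPM (log2 fold change -1.06, SE 0.47, adjusted p = 0.223).

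Interferon-stimulated genes had the lowest median of the lists, a rank that they did not hold without sv_3_b. They answer a complex of STAT proteins and IRF9 and encode antiviral proteins. Of 36 tested, 24 were lower in both metastasizing libraries than in both transformed ones (31.6% of all genes were) and none higher, and 5 were more than 2-fold lower (2.36% of all genes). Their median log2 fold change was -1.77, with -1.96 in ras_3_a and -1.92 in ras_3_b. The transformed pair was itself split, with a median log2 ratio of sv_3_b to sv_3_a of 2.59, and the median of the list was -0.62 without sv_3_b and -2.98 without sv_3_a. Without sv_3_b, the medians of the fibroblast markers (-0.86) and collagens (-0.75) were lower. So were those of the targets of amino acid deprivation and ER stress (-0.71) and of the CDK inhibitors (-0.67). MX1, a GTPase that blocks viral nucleoproteins, measured 32.5 and 401 TPM in sv_3_a and sv_3_b and 20.5 and 11.2 TPM in ras_3_a and ras_3_b (log2 fold change -2.88, SE 1.12, adjusted p = 0.166). IFIT1, which binds uncapped viral RNA, measured 27.9 and 273 against 5.72 and 23.3 TPM (log2 fold change -2.86, SE 1.04, adjusted p = 0.141). In these genes sv_3_a lay closer to the metastasizing libraries than to sv_3_b, which alone stood high at 3% oxygen. STAT2 was the only DEG of the list, and fell from 96.5 and 167 to 21.9 and 30.6 TPM (log2 fold change -2.27, SE 0.31, adjusted p = 0.00274, 0.0415 without ras_3_a and 0.0126 without ras_3_b). IFITM1, a membrane protein that hinders viral entry, had the largest change, from 191 and 1251 to 47.4 and 31.7 TPM (log2 fold change -3.64, SE 0.86, adjusted p = 0.0332). BST2, the tether of budding virions, measured 29.9 and 137 against 6.13 and 4.63 TPM (log2 fold change -3.47, SE 0.73, adjusted p = 0.0207). In these 3 genes sv_3_a also lay more than 2-fold above both metastasizing libraries. In IFITM1 the level of sv_3_b was that of both transformed libraries grown at atmospheric oxygen, whose values are given below. The part that the levels in sv_3_b play in the result of the list was not tested.

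Of the 5 interferon-stimulated genes that were more than 2-fold lower in each metastasizing library, IFITM1 and BST2 are shown because their promoters hold the core of the interferon-stimulated response element. The promoter window of STAT2 does not. The sequences are from RefSeq (GRCh38.p14, a newer build than the GRCh37 of the transcripts) and cover the 250 bases before the start site, 5′ to 3′ in the direction of transcription, with matches to GAAANNGAA on either strand in capitals.
IFITM1, chr11:313790-314039, plus strand: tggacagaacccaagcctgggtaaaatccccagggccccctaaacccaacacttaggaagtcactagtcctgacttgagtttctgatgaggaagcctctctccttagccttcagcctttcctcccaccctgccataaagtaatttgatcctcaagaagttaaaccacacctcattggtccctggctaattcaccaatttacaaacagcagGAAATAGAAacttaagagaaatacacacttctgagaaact
BST2, chr19:17405631-17405880, minus strand: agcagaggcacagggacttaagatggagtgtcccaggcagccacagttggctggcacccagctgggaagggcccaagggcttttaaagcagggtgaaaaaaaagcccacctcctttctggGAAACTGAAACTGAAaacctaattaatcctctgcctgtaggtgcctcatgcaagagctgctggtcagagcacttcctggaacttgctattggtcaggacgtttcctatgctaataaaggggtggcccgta
Of the 36 tested interferon-stimulated genes 29 were matched to a promoter by symbol, and 16 of these (55.2%) held the motif, against 1927 of 27305 promoters of the same length (7.06%) and 530 of the 9970 promoters matched to genes tested (5.32%). The matches in BST2 overlap. A match describes letters and not a bound site.

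Proteases and their activators separated the stages in both directions. MMP1, the interstitial collagenase, measured 385 and 788 TPM in sv_3_a and sv_3_b and 3467 and 6422 TPM in ras_3_a and ras_3_b. The lower metastasizing value was more than 4 times the higher transformed one, and the log2 fold change was 3.1 (SE 0.48, adjusted p = 0.00496, 0.0249 without ras_3_a and 0.0519 without ras_3_b). MMP2, the gelatinase that is made constitutively by fibroblasts, moved the other way, from 185 and 159.6 to 32.8 and 42 TPM (log2 fold change -2.19, SE 0.22, adjusted p = 0.000385, 0.0108 without ras_3_a). These were the only DEGs among 16 metalloproteinases and inhibitors tested, whose median was -0.01, or -0.17 to 0.2 with 1 library left out. MMP14, the membrane-bound activator of MMP2, measured 109 and 115 against 153 and 252 TPM (log2 fold change 0.81, SE 0.24, adjusted p = 0.076), and MMP3, stromelysin, 5.73 and 13.8 against 19.2 and 15.3 TPM (log2 fold change 0.9, SE 0.51, adjusted p = 0.352). MMP15, another membrane-bound member, had the largest change of those not called (log2 fold change -1.47, SE 0.42, adjusted p = 0.0655), with 3.37 and 2.87 against 0.721 and 0.89 TPM. The inhibitor TIMP1 measured 251 and 285 TPM in the transformed and 234 and 351 TPM in the metastasizing libraries, which overlapped, and TIMP2 measured 321 and 266 against 201 and 244 TPM.

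The plasminogen system controls pericellular proteolysis. Its receptor PLAUR, which holds urokinase at the cell surface, measured 75.8 and 93.2 TPM in the transformed and 276 and 218 TPM in the metastasizing libraries. The groups lay apart and PLAUR was the only DEG of the 7 members, with a log2 fold change of 1.54 (SE 0.21, adjusted p = 0.00274, 0.0425 without ras_3_a and 0.0123 without ras_3_b). PLAU, urokinase itself, measured 93.4 and 124 against 153 and 258 TPM (log2 fold change 0.88, SE 0.28, adjusted p = 0.0932). The inhibitor SERPINB2 measured 269 and 71.6 TPM in ras_3_a and ras_3_b against 18.1 and 86.8 TPM in the transformed libraries (log2 fold change 1.79, SE 0.8, adjusted p = 0.224). Here ras_3_a was high and ras_3_b lay within the transformed range.

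The PLAUR promoter is printed because the gene was a DEG and its window holds the AP-1 motif, the site of FOS and JUN proteins that act downstream of ERK, with TGANTCA on either strand in capitals.
PLAUR, chr19:43670170-43670419, minus strand: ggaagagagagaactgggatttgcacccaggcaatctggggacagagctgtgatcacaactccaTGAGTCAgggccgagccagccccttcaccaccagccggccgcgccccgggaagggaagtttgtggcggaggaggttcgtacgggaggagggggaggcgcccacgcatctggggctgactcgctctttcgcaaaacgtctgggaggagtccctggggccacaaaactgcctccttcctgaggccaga
Among the DEGs that rose, 48 were matched to a promoter and 6 of these held the motif (12.5%), namely PLAUR, HCLS1, HSPA5, PERP, EMP1 and NME1. Among the DEGs that fell, 3 of 83 did (3.61%), among all genes tested 365 of 9970 (3.66%), and among all promoters of this length 1801 of 27305 (6.6%). Promoters of the DEGs were also searched for the interferon-stimulated response element core and for ACGTG, the core of the hypoxia response element. The interferon core was in 1 of 48 DEGs that rose (2.08%) and 5 of 83 that fell (6.02%), against 5.32% of genes tested. The hypoxia core was in 10 of 48 that rose (20.8%) and 18 of 83 that fell (21.7%), against 23.6%.

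Collagens changed at different strength in the single chains. Of 22 listed chains tested 4 fell (0.846% of all genes did) and none rose, and the median was -0.51, or -0.94 to -0.44 with 1 library left out. Without overlap 9 chains lay below both transformed libraries (31.6% of all genes did) and 5 above (22.8% of all genes). COL8A1, a short-chain collagen of vessel walls and membranes, measured 105 and 112 TPM in the transformed and 30.9 and 34.4 TPM in the metastasizing libraries (log2 fold change -1.72, SE 0.13, adjusted p = 6.38e-05). Its partner chain COL8A2 went from 9.76 and 9.1 to 1.89 and 2.11 TPM (log2 fold change -1.99, SE 0.31, adjusted p = 0.00514, 0.0157 without sv_3_a, 0.0194 without sv_3_b, 0.0507 without ras_3_a and 0.0311 without ras_3_b). COL4A2, of basement membranes, went from 114 and 98.2 to 47.6 and 30.3 TPM (log2 fold change -1.47, SE 0.2, adjusted p = 0.00242, 0.0229 without ras_3_b). The fibrillar chain COL5A2 fell from 306 and 250.2 to 96 and 135 TPM (log2 fold change -1.28, SE 0.16, adjusted p = 0.00148, 0.0226 without ras_3_a). In these 4 chains the metastasizing libraries differed from each other by less than 2-fold. For the main fibrillar collagens they differed by more: COL1A1 measured 107 and 315 TPM in ras_3_a and ras_3_b against 266 and 200.3 TPM, and COL1A2 92.8 and 344 TPM against 325 and 226 TPM. COL3A1 measured 142 and 152 TPM in the transformed and 18 and 71.8 TPM in the metastasizing libraries (log2 fold change -2.02, SE 0.37, adjusted p = 0.012). COL6A3, a beaded-filament chain, went the other way, from 87 and 65.8 to 188 and 217 TPM (log2 fold change 1.41, SE 0.28, adjusted p = 0.0167). COL4A4, a basement membrane chain that is not on the list and was added after its values were seen, also fell, from 4.23 and 3.43 to 0.536 and 0.355 TPM (log2 fold change -2.19, SE 0.37, adjusted p = 0.00779, 0.0238 without sv_3_a, 0.0194 without sv_3_b, 0.046 without ras_3_a and 0.0529 without ras_3_b). COL10A1, the hypertrophic cartilage chain and the largest change not called on the list, was at 0.364 and 2.39 against 5.71 and 46.2 TPM (log2 fold change 3.43, SE 1.83, adjusted p = 0.315).

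Of 22 other matrix proteins 1 rose and 2 fell (0.505% and 0.846% of all genes did), with a median of -0.14, or -0.34 to -0.0014 with 1 library left out. The small proteoglycans decorin and lumican, which bind collagen fibrils, were the ones that fell. DCN measured 32 and 31.1 TPM in the transformed and 2.23 and 7.11 TPM in the metastasizing libraries (log2 fold change -2.81, SE 0.33, adjusted p = 0.00117), and LUM 52.5 and 69.7 against 3.996 and 17.1 TPM (log2 fold change -2.78, SE 0.42, adjusted p = 0.00464, 0.0209 without sv_3_b and 0.0325 without ras_3_a). HAS2, a hyaluronan synthase, rose from 24.8 and 19.5 to 122 and 70.3 TPM (log2 fold change 2.05, SE 0.28, adjusted p = 0.00274, 0.0137 without sv_3_b and 0.0425 without ras_3_a). TNC, tenascin C, measured 423 and 516 against 245 and 134 TPM (log2 fold change -1.36, SE 0.32, adjusted p = 0.0343), and fibronectin, FN1, 1106 and 808 against 962 and 427 TPM. Values of the YAP- and TGF-beta-responsive CCN2 were 288 and 228 TPM in the transformed libraries, 999 TPM in ras_3_a and 115 TPM in ras_3_b, and those of THBS1, thrombospondin 1, were 101 and 82.5, 550.1 and 94.8 TPM in the same order. Both were high in ras_3_a alone. FAP, a surface protease of activated fibroblasts, fell from 71.6 and 85.3 to 18 and 25.3 TPM (log2 fold change -1.84, SE 0.25, adjusted p = 0.00259, 0.013 without sv_3_b and 0.0395 without ras_3_a). With DCN and LUM it made 3 of the 11 fibroblast markers that fell. None of these markers rose, and VIM, vimentin, was at 3367 and 2730.1 TPM in the transformed and 3628 and 4308 TPM in the metastasizing libraries. In RNA from whole plates, a smaller share of cells expressing a gene and less RNA of that gene in each cell cannot be told apart.

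Contractile proteins of the smooth muscle type had a median log2 fold change of 0.4, with 0.88 in ras_3_a and 0.25 in ras_3_b. ACTG2, gamma smooth muscle actin, was the only DEG of 12 and rose from 9.82 and 11 to 106 and 65.3 TPM (log2 fold change 2.94, SE 0.21, adjusted p = 6.38e-05). TAGLN, transgelin, measured 204 and 222 TPM in the transformed and 1878 and 481 TPM in the metastasizing libraries (log2 fold change 2.16, SE 0.41, adjusted p = 0.0129). ACTA2, alpha smooth muscle actin, measured 5.58 and 7.06 against 32.8 and 12.2 TPM (log2 fold change 1.6, SE 0.49, adjusted p = 0.0831). In TAGLN and ACTA2 both metastasizing libraries lay above the transformed ones, with ras_3_a the higher. Of 12 members 7 lay above without overlap (22.8% of all genes did) and none below.

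Members of the BMP pathway and its ID targets moved in both directions. BMP4, a ligand of the pathway, measured 19.6 and 19.3 TPM in the transformed and 0.866 and 1.94 TPM in the metastasizing libraries (log2 fold change -3.45, SE 0.29, adjusted p = 0.000156). ID proteins are helix-loop-helix factors that block differentiation and are commonly read as BMP targets. ID3 rose from 7.46 and 7.63 to 90.03 and 33.8 TPM (log2 fold change 2.79, SE 0.49, adjusted p = 0.00932, 0.0258 without sv_3_a, 0.0327 without sv_3_b, 0.132 without ras_3_a and 0.0144 without ras_3_b), and ID1 measured 2.62 and 2.74 against 21.1 and 13.5 TPM (log2 fold change 2.45, SE 0.71, adjusted p = 0.0704). ID2 fell from 73.2 and 97 to 23.6 and 29.3 TPM (log2 fold change -1.66, SE 0.24, adjusted p = 0.0036, 0.0144 without sv_3_b, 0.0474 without ras_3_a and 0.016 without ras_3_b). ID1 and ID3 were thus higher in both metastasizing libraries while ID2 and the ligand BMP4 were lower. FST, follistatin, which binds activins, measured 27.2 and 41.6 against 72.5 and 141 TPM (log2 fold change 1.57, SE 0.32, adjusted p = 0.0179). Of 9 tested members 1 rose and 2 fell (0.505% and 0.846% of all genes did).

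None of 18 cadherins and integrins was a DEG, and their median was -0.39, or -0.53 to -0.17 with 1 library left out. ITGA2, a collagen-binding integrin, had the largest change, from 2.18 and 3.9 to 6.87 and 29.5 TPM (log2 fold change 2.12, SE 0.52, adjusted p = 0.0375). ITGA6, a laminin receptor, measured 43.1 and 33.4 against 72.2 and 119.6 TPM (log2 fold change 1.28, SE 0.29, adjusted p = 0.0289). On the lower side, ITGB8 measured 2.54 and 2.82 against 0.366 and 0.86 TPM (log2 fold change -1.55, SE 0.4, adjusted p = 0.0472) and ITGB3 30.8 and 29.3 against 18.9 and 7.35 TPM (log2 fold change -1.31, SE 0.32, adjusted p = 0.0392). CDH2, N-cadherin, did not separate the stages, at 93.9 and 65.3 against 109 and 44.1 TPM.

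No gene of the HIF response passed the test for the step at 3% oxygen. Of 25 tested, 6 lay above both transformed libraries without overlap and 9 below (24% and 36%, close to the 22.8% and 31.6% of all genes), and their median log2 fold change was -0.27 (-0.4 in ras_3_a and -0.063 in ras_3_b). CA9, a carbonic anhydrase that is among the most specific HIF targets, measured 44 and 45.5 TPM in the transformed and 7.13 and 17.8 TPM in the metastasizing libraries (log2 fold change -1.94, SE 0.76, adjusted p = 0.17). INSIG2, a regulator of sterol synthesis, measured 33.9 and 31.9 against 7.8 and 14 TPM (log2 fold change -1.61, SE 0.39, adjusted p = 0.0351), PPFIA4, a liprin, 11.1 and 11.5 against 2.26 and 4.7 TPM (log2 fold change -1.64, SE 0.47, adjusted p = 0.0654), and MXI1, a MYC antagonist, 53.5 and 44.4 against 18.9 and 19.9 TPM (log2 fold change -1.31, SE 0.47, adjusted p = 0.134). In these 4 genes each metastasizing library was more than 2-fold below both transformed ones (16% of the list, against 2.36% of all genes), and none of the 25 was as far above. BNIP3, a mediator of mitophagy, measured 445 and 426 against 274 and 476 TPM (log2 fold change -0.27, SE 0.18, adjusted p = 0.422), and its relative BNIP3L 335 and 289.8 against 205 and 266 TPM (log2 fold change -0.41, SE 0.17, adjusted p = 0.186). VEGFA, the angiogenic growth factor, measured 161 and 138 against 155 and 87.6 TPM (log2 fold change -0.35, SE 0.31, adjusted p = 0.58). The stanniocalcins are secreted glycoproteins. STC1 was at 59.2 and 88.7 against 116 and 441 TPM (log2 fold change 1.63, SE 0.84, adjusted p = 0.296) and STC2 at 193 and 181 against 182 and 89.4 TPM (log2 fold change -0.55, SE 0.34, adjusted p = 0.392). HIF1A itself measured 436 and 348 against 259 and 254 TPM (log2 fold change -0.6, SE 0.16, adjusted p = 0.0565), and TPM says nothing of the stability of its protein.

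The 23 listed genes of glycolysis and lactate handling gave no DEG. Their median was 0.023, or -0.27 to 0.27 with 1 library left out. PDK1, which closes the entry of pyruvate into mitochondria, measured 34.4 and 26.9 against 27.2 and 39 TPM (log2 fold change 0.096, SE 0.27, adjusted p = 0.887). LDHA, lactate dehydrogenase A, measured 3450.3 and 3088 against 2397 and 3514 TPM (log2 fold change -0.17, SE 0.17, adjusted p = 0.635), and LDHB, the largest change of the list, 1199 and 741 against 1289.5 and 2091 TPM (log2 fold change 0.8, SE 0.72, adjusted p = 0.593). SLC2A1, the glucose transporter GLUT1, measured 153 and 176 against 101 and 147 TPM (log2 fold change -0.43, SE 0.23, adjusted p = 0.314). The 13 mitochondrially encoded genes gave no DEG. Their median was -0.18, or -0.45 to 0.13 with 1 library left out, with MT-ND3 as the largest change (log2 fold change -0.53, SE 0.66, adjusted p = 0.722) at 1998 and 1502 against 1295 and 1105 TPM.

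The 25 listed genes of replication and mitosis gave no DEG. Their median was -0.16, or -0.25 to -0.061 with 1 library left out, and TOP2A, a topoisomerase of dividing cells, had the largest change, from 364 and 282 to 137 and 217 TPM (log2 fold change -0.89, SE 0.25, adjusted p = 0.0637). MKI67, the proliferation marker Ki-67, measured 76.5 and 53.2 TPM in the transformed and 41.8 and 65.7 TPM in the metastasizing libraries. CDK inhibitors had a lower median (-0.67 over 7 genes, -1.3 in ras_3_a and -0.74 in ras_3_b). CDKN1B, p27, measured 54.4 and 57.1 against 14 and 31.2 TPM (log2 fold change -1.39, SE 0.26, adjusted p = 0.0115), and CDKN2C, p18, 60.6 and 59.8 against 16.8 and 35.5 TPM (log2 fold change -1.28, SE 0.24, adjusted p = 0.013). Both lay below the transformed libraries without overlap but did not pass the test. CDKN1A, p21, measured 67 and 109 TPM in the transformed and 131 and 50.8 TPM in the metastasizing libraries, which overlapped.

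In sterol and fatty acid synthesis no gene passed the test. The median over 20 genes was 0.19, or -0.23 to 0.52 with 1 library left out. SCD, the desaturase that makes oleate, measured 217 and 158 against 126 and 352 TPM (log2 fold change 0.19, SE 0.32, adjusted p = 0.811), so that the metastasizing libraries lay on either side of the transformed range. LSS, lanosterol synthase, had the largest change, from 28.8 and 27.2 to 56.4 and 39.7 TPM (log2 fold change 0.75, SE 0.96, adjusted p = 0.732). Among 10 lipid droplet and fatty acid binding proteins FABP5, an intracellular carrier of fatty acids, rose from 15.6 and 11.7 to 114 and 87.2 TPM (log2 fold change 2.84, SE 0.25, adjusted p = 0.000184). G0S2, an inhibitor of the lipase ATGL, measured 2.75 and 14.8 TPM in the transformed and 69.6 and 276 TPM in the metastasizing libraries (log2 fold change 4.3, SE 1.004, adjusted p = 0.0319). Its change was larger than that of any DEG that rose, and each pair of libraries was itself far apart. PLIN2, a coat protein of lipid droplets, measured 68.7 and 75.4 against 81.2 and 72.2 TPM, and the groups overlapped.

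Stress pathways were mixed. Of 15 targets of amino acid deprivation and ER stress 1 rose and 1 fell (0.505% and 0.846% of all genes did), with a median of -0.58, or -0.72 to -0.31 with 1 library left out. HSPA5, the chaperone BiP of the endoplasmic reticulum, rose from 245 and 239 to 538 and 722 TPM (log2 fold change 1.36, SE 0.16, adjusted p = 0.00131, 0.0148 without ras_3_b), and SESN2, a sensor of leucine, fell from 23.1 and 20.2 to 8.9 and 7.02 TPM (log2 fold change -1.39, SE 0.23, adjusted p = 0.0078, 0.0256 without sv_3_a, 0.0194 without sv_3_b, 0.0395 without ras_3_a and 0.0643 without ras_3_b). CHAC1, a glutathione-degrading target of ATF4, measured 14.8 and 7.24 against 0.574 and 1.31 TPM (log2 fold change -2.96, SE 1.2, adjusted p = 0.181), and ATF4 itself 671 and 564 against 359 and 438 TPM (log2 fold change -0.63, SE 0.2, adjusted p = 0.0848). Heat shock proteins had a median of 0.47 over 8 genes, or 0.35 to 0.71 with 1 library left out. The mitochondrial co-chaperonin HSPE1 was the only DEG of the list and rose from 167 and 146 to 339 and 297 TPM (log2 fold change 1.02, SE 0.15, adjusted p = 0.00409, 0.0181 without sv_3_b, 0.0497 without ras_3_a and 0.0176 without ras_3_b). HSPB8, a small heat shock protein that is not on the list, also rose, from 0.646 and 0.899 to 3.39 and 6.98 TPM (log2 fold change 2.09, SE 0.29, adjusted p = 0.00289, 0.0289 without ras_3_b). HSPD1, the partner of HSPE1, measured 379 and 302 against 731 and 521 TPM (log2 fold change 0.87, SE 0.18, adjusted p = 0.0187). None of 9 immediate early genes was a DEG, with a median of -0.58, or -0.67 to -0.32 with 1 library left out, and KLF4, a Kruppel-like factor, had the largest change, from 19.4 and 26 to 3.55 and 11.1 TPM (log2 fold change -1.74, SE 0.36, adjusted p = 0.0188). ICAM1, an adhesion receptor for leukocytes, measured 63 and 119 against 190.2 and 135 TPM (log2 fold change 0.88, SE 0.36, adjusted p = 0.187). The arginine synthesis enzyme ASS1 measured 219 and 213 against 268 and 119 TPM (log2 fold change -0.27, SE 0.34, adjusted p = 0.723), and the aldose reductase AKR1B1 760.0 and 1552 against 593 and 622 TPM (log2 fold change -0.84, SE 0.42, adjusted p = 0.282).

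**Figure D4:**
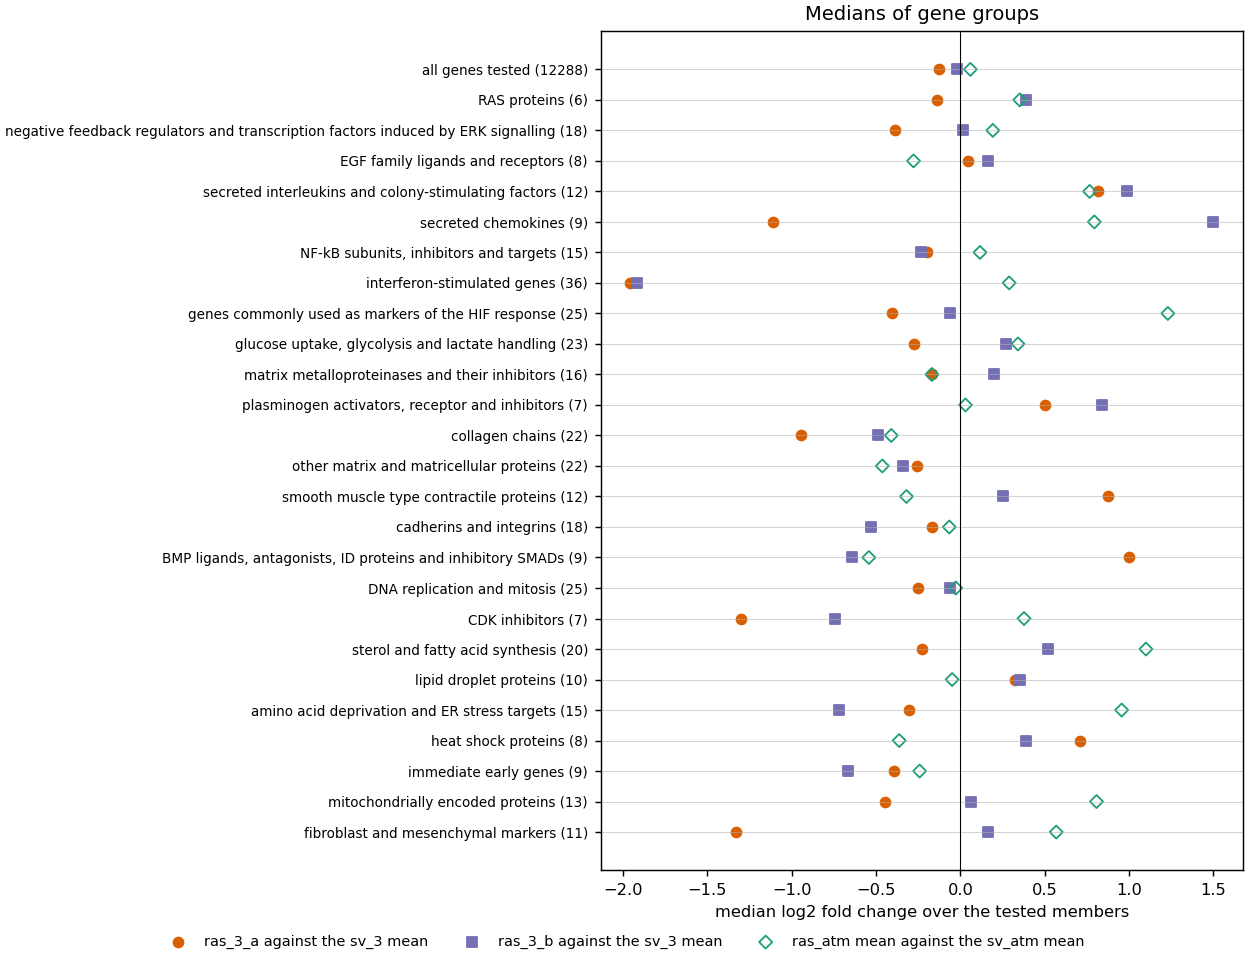
Median log2 fold change over the tested members of each gene group (horizontal axis, on the log2(TPM + 0.5) scale, with the number of members in brackets) for ras_3_a (orange circles) and ras_3_b (violet squares) against the mean of sv_3, and for the same step at atmospheric oxygen (green diamonds). Interferon-stimulated genes lie lowest in both libraries at 3% oxygen (-1.96 and -1.92, against a mean that includes sv_3_b), and markers of the HIF response lie highest in the atmospheric step (1.23).

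The step differed with oxygen in a share of genes. The difference was tested as an interaction, the log2 fold change of the step at 3% oxygen minus that at atmospheric oxygen, over 12590 genes that averaged 1 TPM or more in any of the 4 groups. It was called positive in 222 genes (1.76%) and negative in 424 (3.37%). Without ras_3_a 184 genes were called in all, without ras_3_b 398, without sv_3_b 366 and without ras_atm_b 360, against 646 with every library. Across the 12288 genes the fold changes of the step at both oxygen levels, which share no library, had a Pearson correlation of -0.00766 and a Spearman correlation of -0.0506, given as a description across genes that are not independent. Of the 62 DEGs that rose at 3% oxygen 27 were higher in ras_atm than in sv_atm (43.5%, against 55.6% of all genes tested), and of the 104 that fell 55 were lower (52.9%, against 44.3%). IGFBP5, chosen after its values were seen, was lower with the step at both oxygen levels, with 96.3 and 96.9 TPM in sv_atm and 9.84 and 9.58 TPM in ras_atm and an interaction of -0.66 (SE 0.27, adjusted p = 0.129). As stated above, HRAS itself was not higher in the libraries labelled metastasizing at atmospheric oxygen (interaction 2.92, SE 0.61, adjusted p = 0.00928), and how that bears on the genes that follow was not tested.

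The 5 genes with the largest positive interactions were higher in metastasizing than in transformed cells at 3% oxygen and lower at atmospheric oxygen. ID1 measured 2.62 and 2.74 against 21.1 and 13.5 TPM at 3% oxygen in sv_3 and ras_3, and 53.9 and 46 against 6.73 and 4.71 TPM in sv_atm and ras_atm, an interaction of 5.48 (SE 0.79, adjusted p = 0.00153). ID3 measured 186 and 168 TPM in sv_atm and 31.8 and 24.6 TPM in ras_atm (interaction 5.43, SE 0.55, adjusted p = 0.000223). Transformed cells thus held the lowest ID1 and ID3 at 3% oxygen and the highest at atmospheric oxygen. ACTG2 gave 168 and 171 against 33.7 and 31.7 TPM at atmospheric oxygen (interaction 5.3, SE 0.24, adjusted p = 1.74e-06). MMP1 gave 407 and 399 against 107 and 112 TPM there (interaction 4.97, SE 0.53, adjusted p = 0.000321), so its metastasizing level was the lowest of the 4 groups at atmospheric and the highest at 3% oxygen. HSPB8 measured 0.646 and 0.899 against 3.39 and 6.98 TPM at 3% oxygen and 5.54 and 5.15 against 0.355 and 0.388 TPM at atmospheric oxygen (interaction 4.84, SE 0.32, adjusted p = 2.45e-05). PLAUR was slightly higher in ras_atm (134 and 113 TPM) than in sv_atm (91.7 and 100.1 TPM), with an interaction of 1.18 (SE 0.23, adjusted p = 0.00736).

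The 5 largest negative interactions were of different kinds. NUPR1, a stress-induced chromatin protein, measured 3.51 and 3.75 TPM in sv_atm and 93 and 78.6 TPM in ras_atm, but 49.4 and 40.5 against 58.7 and 10.5 TPM at 3% oxygen (interaction -5.2, SE 0.55, adjusted p = 0.000319). INHBE, an activin subunit, measured 0.208 and 0.694 against 9.11 and 8.33 TPM at atmospheric and 19.5 and 18 against 10.3 and 2.85 TPM at 3% oxygen (interaction -5.003, SE 0.74, adjusted p = 0.00183). NUPR1 and INHBE were thus higher in ras_atm than in sv_atm, and lower at least in ras_3_b at 3% oxygen. DPT, which fell at 3% oxygen, measured 6.11 and 6.18 against 6.85 and 6.29 TPM at atmospheric oxygen (interaction -5.02, SE 0.7, adjusted p = 0.00136). IFITM1 measured 1257 and 1251 against 2432 and 2221 TPM at atmospheric oxygen (interaction -4.53, SE 0.96, adjusted p = 0.00992), and the metastasizing libraries at 3% oxygen held the lowest values of the 8. CA9 measured 0.231 and 0.487 TPM in sv_atm and 5.42 and 3.12 TPM in ras_atm, and 44 and 45.5 against 7.13 and 17.8 TPM at 3% oxygen (interaction -4.38, SE 0.84, adjusted p = 0.00627). Of these 10 genes, 5 kept their interaction call without each of the 8 libraries in turn (ID3, ACTG2, MMP1, HSPB8 and NUPR1). The others lost it, CA9 without 6 of the libraries (adjusted p up to 0.0714 without ras_3_a), IFITM1 without 6 (up to 0.064 without ras_3_b), DPT without ras_3_a (0.0193), ID1 without ras_3_a (0.0202) and INHBE without ras_3_b (0.0184).

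**Figure D5:**
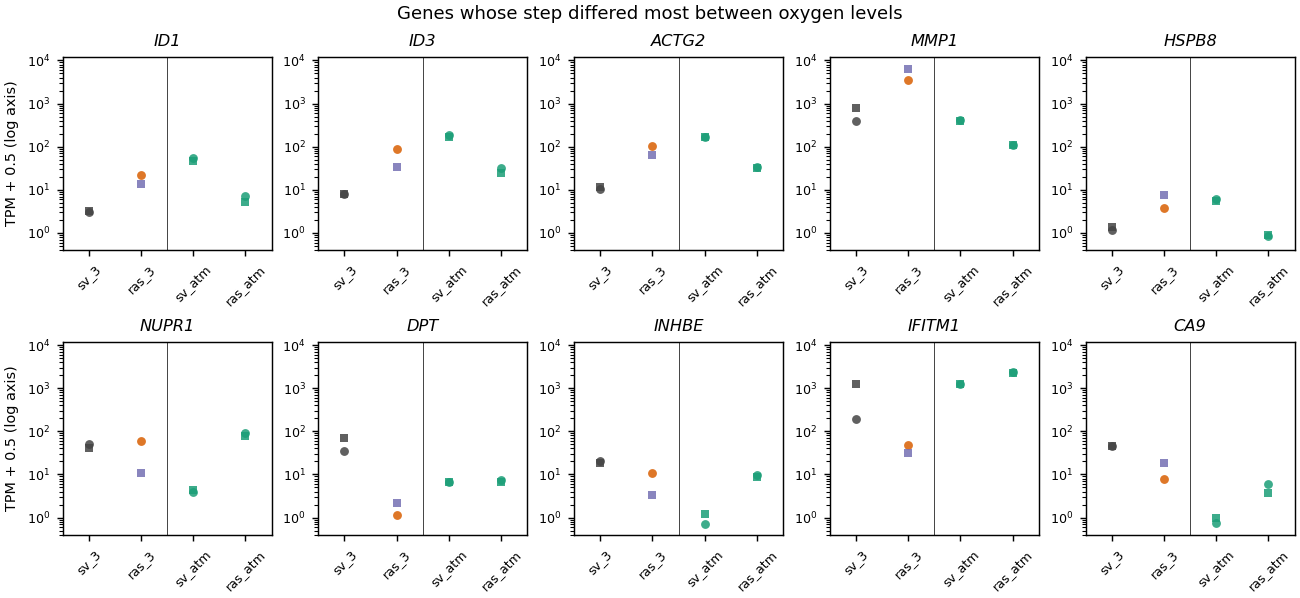
TPM + 0.5 on a log axis in the transformed (sv) and metastasizing (ras) libraries at 3% oxygen (left of the line) and at atmospheric oxygen (right of the line, green) for the 5 genes with the largest positive and the 5 with the largest negative interaction, with circles for replicate a, squares for replicate b, ras_3_a in orange and ras_3_b in violet. ID1, ID3, ACTG2, MMP1 and HSPB8 go up from sv to ras at 3% oxygen and down at atmospheric oxygen.

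The list of the HIF response held the most interaction calls. Of its 25 genes 15 had a negative interaction (3.37% of all genes did) and none a positive one. The median log2 fold change of the list was 1.23 for the step at atmospheric oxygen and -0.27 at 3% oxygen. BNIP3 measured 115 and 117 TPM in sv_atm and 333 and 338 TPM in ras_atm (interaction -1.8, SE 0.2, adjusted p = 0.000356), VEGFA 27 and 33.5 against 78 and 76.9 TPM (interaction -1.71, SE 0.34, adjusted p = 0.00793), and MXI1 3.87 and 7.14 against 19.7 and 17.4 TPM (interaction -3.02, SE 0.51, adjusted p = 0.00356). In each of them ras_atm lay above sv_atm and both sv_3 libraries lay above both ras_atm libraries. INSIG2 had an interaction of -2.62 (SE 0.43, adjusted p = 0.00289), PPFIA4 of -3.77 (SE 0.52, adjusted p = 0.00123) and PLOD2, a collagen lysyl hydroxylase, of -1.02 (SE 0.2, adjusted p = 0.00627). Sterol and fatty acid synthesis gave 7 negative calls of 20, with a median of 1.1 at atmospheric and 0.19 at 3% oxygen. INSIG1, an SREBP target, had -2.27 (SE 0.2, adjusted p = 0.00011), and SCD -2.27 (SE 0.36, adjusted p = 0.00245). Collagen chains gave 5 negative calls of 22, such as COL8A1 (interaction -2.78, SE 0.14, adjusted p = 2.84e-06). Heat shock proteins gave 4 positive calls of 8 (1.76% of all genes did), such as HSPD1 (interaction 1.25, SE 0.2, adjusted p = 0.00261). Interferon-stimulated genes gave 3 negative calls of 36, in BST2, IFITM1 and STAT2. Genes of glycolysis and lactate handling gave 5 negative calls of 23, fibroblast markers 4 of 11 and CDK inhibitors 3 of 7, with no positive one. Targets of amino acid deprivation and ER stress gave 4 negative calls and 1 positive of 15, and cadherins and integrins 4 and 1 of 18. Contractile proteins gave 3 positive calls of 12 and no negative one. DNA replication and mitosis gave no call among 25 genes.

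Of the 4 HIF-response genes that were more than 2-fold lower in both metastasizing libraries and had negative interactions, 3 are printed because their promoters hold the hypoxia response element core, and that of MXI1 does not. The sequences are shown with ACGTG on either strand in capitals and coordinates of GRCh38.p14 from RefSeq.
CA9, chr9:35673678-35673927, plus strand: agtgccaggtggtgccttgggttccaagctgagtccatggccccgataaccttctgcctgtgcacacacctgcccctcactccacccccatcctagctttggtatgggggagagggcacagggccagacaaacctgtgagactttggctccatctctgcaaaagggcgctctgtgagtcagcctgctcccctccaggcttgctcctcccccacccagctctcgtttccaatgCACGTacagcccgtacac
INSIG2, chr2:118088221-118088470, plus strand: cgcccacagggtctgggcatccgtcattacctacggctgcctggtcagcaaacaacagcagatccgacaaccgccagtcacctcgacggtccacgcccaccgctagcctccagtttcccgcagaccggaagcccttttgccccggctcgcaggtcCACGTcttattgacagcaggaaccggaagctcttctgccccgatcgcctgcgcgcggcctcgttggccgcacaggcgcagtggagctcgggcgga
PPFIA4, chr1:203026241-203026490, plus strand: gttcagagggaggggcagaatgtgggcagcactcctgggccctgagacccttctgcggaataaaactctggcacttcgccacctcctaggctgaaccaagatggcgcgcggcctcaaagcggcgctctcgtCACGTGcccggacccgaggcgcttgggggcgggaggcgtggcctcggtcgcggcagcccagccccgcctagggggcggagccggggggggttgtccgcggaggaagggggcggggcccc
In PPFIA4 the matches on the opposite strands overlap. Of the 25 tested genes of the list 20 were matched to a promoter, and 13 of these (65%) held the core, against 2357 of the 9970 promoters of genes tested (23.6%) and 5101 of 27305 promoters (18.7%).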

How the data were processed

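RNA-seq (TruSeq Stranded mRNA) was made by the authors from duplicate plates, and 16 libraries in 8 groups of 2 were used. The deposited values are TPM per transcript from kallisto 0.42.1 on GRCh37, estimated by the authors with no counts or depths given, so no interval from counting could be computed and the authors' edgeR test on counts could not be repeated. Transcripts were joined to genes of GENCODE 44 (lifted to GRCh37): 151453 of 180253 transcripts matched, holding 88.2% to 90.1% of the TPM, and 1 stray header line was skipped. Groups were taken from the sample labels.

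TPM were summed per protein-coding gene. Genes that averaged 1 TPM or more in either group compared were tested on log2(TPM + 0.5) with limma 3.58.1 in R 4.3.3 (8 group means over 16 libraries, spread moderated with a trend, 1 variance factor per group) and Benjamini-Hochberg adjustment. Fold changes are on that scale, which understates changes of low genes. Calls needed an adjusted p under 0.01 and a log2 fold change beyond 1. The script was tested on simulated data. Alternatives changed the spread model, libraries, pseudocount, filter, scaling, block and gene set.

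Genes named were the 10 largest rises and falls among DEGs with each metastasizing library beyond 2-fold of both transformed ones, up to 4 DEGs and the largest change not called in each of 28 gene lists, the 5 largest interactions in each direction, the 8 genes most unequal between ras_3_a and ras_3_b in each direction (averaging 10 TPM or more), and genes followed by the study. Further members of the lists are named for their known roles. The members and lists were chosen with earlier results of these data known. Promoters are from RefSeq (GRCh38.p14) and were matched to genes by symbol. Figures were drawn with matplotlib 3.10.9. Some genes and 1 sequence are not reported here.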

Additional observations from a re-analysis of the deposited data

Results flagged for a closer look

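The difference of the step between oxygen levels, tested as an interaction, stood out in 222 genes with a positive and 424 with a negative value. In 10 of them it was largest. ID1 (5.48) and ID3 (5.43), inhibitors of differentiation, had the largest positive log2 differences, followed by the actin ACTG2 (5.30), the collagenase MMP1 (4.97) and the small heat shock protein HSPB8 (4.84). The largest negative differences were those of the stress protein NUPR1 (-5.20), the matrix protein DPT (-5.02), the activin subunit INHBE (-5.00), the antiviral protein IFITM1 (-4.53) and the carbonic anhydrase CA9 (-4.38). HRAS was not higher in the libraries labelled metastasizing at atmospheric oxygen, and its part in these differences was not tested.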

How the results depend on the processing

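The counts of DEGs depended most on how the spread was estimated. With every group given the same spread, 240 genes rose, 482 fell and 1056 had an interaction. With only the libraries of the groups compared in the fit, limma called 0 that rose, 0 that fell (898 and 1401 at an unadjusted p under 0.05) and 149 interactions. At an adjusted p under 0.05 the counts were 167, 292 and 1240. Leaving out 1 library at a time gave 24 to 51 genes that rose, 23 to 122 that fell and 184 to 491 interactions. Fewest were called without ras_3_a. The lone library left in a group was then assumed to vary with its group's factor. Pseudocounts, filters, rescaling, the test without a trend and all annotated genes moved each count by less than 1.5 times. With 1 variance factor for each library the counts were the same, 62, 104 and 646. That fit, 1 of the 11 alternatives below, could not differ, since both libraries of a pair lie equally far from their mean. No DEG among the named genes changed sign under any alternative run. The largest rises and falls could not do so when a library was left out or the pseudocount, filter or spread model changed. Their selection required each metastasizing library to lie beyond 2-fold of both transformed ones, so their stable sign is no evidence of robustness. Of the named genes that were not called, 19 changed sign when 1 library was left out, with 27 changed values in all. Among them were ANKRD1 (-2.09 without ras_3_a), BNIP3 (0.13 without ras_3_a) and SCD (-0.55 without ras_3_b). Under the 11 alternatives that kept all libraries, 8 of the DEGs named by those rules lost their call at least once. These were ID3 in 6, INHBA and TNFRSF6B in 5, FERMT1 in 4, CXCL12, HSPE1 and SESN2 in 2 and LCP1 in 1. The DEGs that were added after their values were seen, such as HMGA2, NQO1, ZEB2 and COL4A4, were not part of this count. The median log2 fold change of all genes was 0.00844 after quantile normalization and -0.0218 after median-ratio rescaling.

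With the replicate letter as a replicate block, 44 genes rose, 78 fell and 520 had an interaction. The letters do not pair the plates by the labels, and the deviations of both stages had a correlation across genes of 0.0625.

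The files hold no counts, so what depth limits could not be assessed, and 2 plates of 1 line per stage limit every comparison.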
